A study of Arabidopsis thaliana with 8 samples.

Results

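The core switches of the Arabidopsis iron deficiency response were followed across roots that differed in phosphate supply and in an allele of BZR1. They are the bHLH factor FIT, the 4 Ib bHLH factors BHLH38, BHLH39, BHLH100 and BHLH101, the bHLH factor PYE, the ubiquitin ligase BTS and the peptide genes IMA1, IMA2 and IMA3. The 10 genes were taken by locus identifier, whatever their values, from a table of read counts with 40246 features. Each of the 10 loci stood in the table once, 9 held enough counts to be tested among 20262 features, and IMA3 did not.

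The libraries came from roots of 7-day-old Arabidopsis thaliana seedlings of the Columbia-0 (Col-0) background, moved on day 6 for 24 h to a medium with low (1 µM) or adequate (0.625 mM) phosphate (Pi). The 4 groups were bzr1-D at low Pi, bzr1-D at adequate Pi, wild type at low Pi and wild type at adequate Pi, with 2 libraries each, labelled biological replicates and numbered Exp 1 and Exp 2. The bzr1-D line carries a dominant allele of BZR1, a transcription factor through which brassinosteroid hormones act, and the allele is carried in the germline, not under a cell type promoter. All seedlings shared a half-strength Murashige and Skoog medium with 0.2% sucrose, and the iron supply of the media is not stated in the labels used here. The p-values measure the spread between libraries, and the labels do not say what libraries of the same Exp number share.

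As background, roots short of iron raise a bHLH cascade. Factors of the IVc group together with BHLH121 switch on the Ib bHLH genes, whose proteins pair with FIT in the root epidermis to activate the reductase FRO2 and the transporter IRT1. PYE acts beside this branch in the inner root as a repressor of iron distribution genes. BTS marks IVc factors for destruction, and the IMA peptides, which move through the plant as iron deficiency signals, bind BTS and shield those factors. In roots kept at low Pi, iron availability and iron accumulation are known to change, and BZR1 and brassinosteroids are known to bear on root growth under those conditions.

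Sequencing depth ran from 15947895 to 22150569 counts per library. Levels are given in CPM, counts per 1000000 counts after TMM scaling, and 1 CPM stood for at least 16.1 counts. Among the cell type markers, the endodermis pair CASP1 and SCR summed to between 204 and 251 CPM, and 7 shoot genes to between 36.6 and 64.5 CPM, with CA1 at 0 in 1 library. As a view of the treatment, 7 genes of the Pi starvation response summed to 498 and 375 CPM in bzr1-D at low Pi, against 123 and 100.2 CPM in bzr1-D at adequate Pi. In wild type they summed to 138 and 265 CPM at low Pi, against 89.9 and 90.9 CPM at adequate Pi.

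The coding sequences of the IMA genes are shown because their low counts have to be read with their length and likeness in view. IMA1 (AT1G47400, chromosome 1, 17385717 to 17386186, plus strand) and IMA2 (AT1G47395, chromosome 1, 17383034 to 17383408, plus strand) are neighbours separated by 1876 bases in the reference annotation. IMA3 (AT2G30766) lies on chromosome 2 from 13107909 to 13108863 on the plus strand. Sequences here are read from the RefSeq assembly TAIR10.1, 5′ to 3′. In the lines that follow, the capitals mark the last 17 codons and the stop codon, which encode the C-terminal stretch that the IMA peptides share.
IMA1: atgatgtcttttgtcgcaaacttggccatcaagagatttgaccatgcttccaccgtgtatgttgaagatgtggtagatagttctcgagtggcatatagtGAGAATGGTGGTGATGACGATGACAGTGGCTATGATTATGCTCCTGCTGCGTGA
IMA2: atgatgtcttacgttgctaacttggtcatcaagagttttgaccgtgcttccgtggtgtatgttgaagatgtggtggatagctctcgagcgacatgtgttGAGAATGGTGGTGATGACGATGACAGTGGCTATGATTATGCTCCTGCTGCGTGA
IMA3: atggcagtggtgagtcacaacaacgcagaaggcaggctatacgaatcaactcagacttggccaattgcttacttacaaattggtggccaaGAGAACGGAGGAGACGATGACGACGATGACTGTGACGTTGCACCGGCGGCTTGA
The IMA1 and IMA2 reading frames were each 153 bases long and were identical at 136 of 153 aligned bases (88.9%), and their capital parts were identical at 54 of 54 bases. The IMA3 frame of 144 bases matched IMA1 at 53.5% and IMA2 at 51.6% of aligned bases, and its capital part matched theirs at 37 of 54 bases. The counted spans of IMA1 and IMA2 shared 10 stretches of 50 bases, the read length, out of 421 in IMA1 and 326 in IMA2. Reads from those stretches cannot be told apart between IMA1 and IMA2, so the counts of both are uncertain to that extent.

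Promoters of 4 genes are shown because their levels set the pattern of the results: BHLH38 and BHLH100, which moved together over the libraries, BHLH39, which lies beside BHLH38 but took another course, and IMA1. The BHLH38 gene (AT3G56970, chromosome 3, 21084110 to 21085150, minus strand) is a neighbour of BHLH39 (AT3G56980, chromosome 3, 21086546 to 21087494, minus strand), and 1144 bases separate them in the reference annotation. Each line holds the 250 bases before the annotated start of the RefSeq gene, and the capitals mark a G-box (CACGTG) or a brassinosteroid response element (CGTGTG). The windows are chr3:21085246-21085495, chr3:21087711-21087960 and chr2:17199455-17199704 on the minus strand, and chr1:17385457-17385706 on the plus strand.
BHLH38: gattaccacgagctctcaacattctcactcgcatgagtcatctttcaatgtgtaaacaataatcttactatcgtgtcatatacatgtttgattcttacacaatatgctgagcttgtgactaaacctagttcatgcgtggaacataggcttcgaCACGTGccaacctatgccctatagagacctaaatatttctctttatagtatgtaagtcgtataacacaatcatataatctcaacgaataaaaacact
BHLH39: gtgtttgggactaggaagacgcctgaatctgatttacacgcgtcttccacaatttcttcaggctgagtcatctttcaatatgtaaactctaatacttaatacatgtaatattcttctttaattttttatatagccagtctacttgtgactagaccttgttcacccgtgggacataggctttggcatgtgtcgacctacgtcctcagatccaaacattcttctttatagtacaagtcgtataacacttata
BHLH100: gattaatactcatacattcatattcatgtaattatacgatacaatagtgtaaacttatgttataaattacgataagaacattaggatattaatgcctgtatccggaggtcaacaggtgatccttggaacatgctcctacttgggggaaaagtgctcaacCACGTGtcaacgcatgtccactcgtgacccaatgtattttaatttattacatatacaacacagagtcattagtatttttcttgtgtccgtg
IMA1: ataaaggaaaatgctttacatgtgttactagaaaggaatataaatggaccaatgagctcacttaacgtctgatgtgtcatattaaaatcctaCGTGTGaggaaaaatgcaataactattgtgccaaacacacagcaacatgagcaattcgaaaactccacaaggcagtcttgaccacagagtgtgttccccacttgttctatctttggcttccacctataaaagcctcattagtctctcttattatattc
On either strand, the G-box occurred in the 250 bases before BHLH38, BHLH100 and BTS, 3 of the 10 genes, against 6.49% of 27443 promoters of that length. BTS held it 3 times. BHLH38 and BHLH100 are related genes, with coding sequences identical at 70.4% of aligned bases. Their G-boxes start at positions -97 and -91, so these matches may not be independent. The element CGTGTG occurred in 4 of 10 (BHLH101, PYE, IMA1 and IMA2), against 5.37% of all promoters. The windows of the neighbours IMA1 and IMA2 are alike in sequence around this element, so their matches are not independent. CGTGCG, the other form of that element, occurred in 0 of 10, against 1.57%, and P1BS (GNATATNC), the element that the Pi regulator PHR1 is known to bind, in 0 of 10, against 5.46%. The wider E-box CANNTG, of which the G-box is a form, occurred in 8 of 10, against 55.3%. These are matches of letters in a window, not measured binding.

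Per kilobase of counted exon, and over all 8 libraries, the members spanned a wide range of levels. FIT stood highest at 59.0 ± 15.1 CPM per kb (SD, n = 8), followed by BHLH39 at 36.0 ± 6.97 CPM per kb and BTS at 28.1 ± 1.81 CPM per kb. These 3 neighbours in the order overlapped in range, FIT lying between 30.0 and 83.3, BHLH39 between 23.3 and 44.3 and BTS between 24.3 and 30.0 CPM per kb. BHLH38, which reached 23.5 CPM per kb in its highest library, overlapped the low end of BHLH39 and not BTS. It came next, at 10.7 ± 5.95, PYE at 8.11 ± 0.948, IMA2 at 6.45 ± 3.29, BHLH101 at 5.30 ± 2.02, BHLH100 at 5.15 ± 5.67 and IMA1 at 2.15 ± 1.46 CPM per kb, and neighbours in this order from BHLH38 on did not differ beyond their spread. The counted spans covered between 45% (IMA2) and 99.4% (PYE) of the RefSeq exon length, with 60.3% for IMA1, so levels of the short genes carry that limit too.

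The members also differed in how steady they were across the libraries. BTS varied 1.24-fold between its lowest and highest library and PYE 1.44-fold, whereas BHLH38 varied 8.23-fold, IMA1 8.44-fold, IMA2 11.6-fold and BHLH100 61.5-fold. The lowest BHLH100 library held 4 counts and the highest 309. The lowest IMA1 library held 5 counts and the lowest IMA2 library 7.

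**Figure D1:**
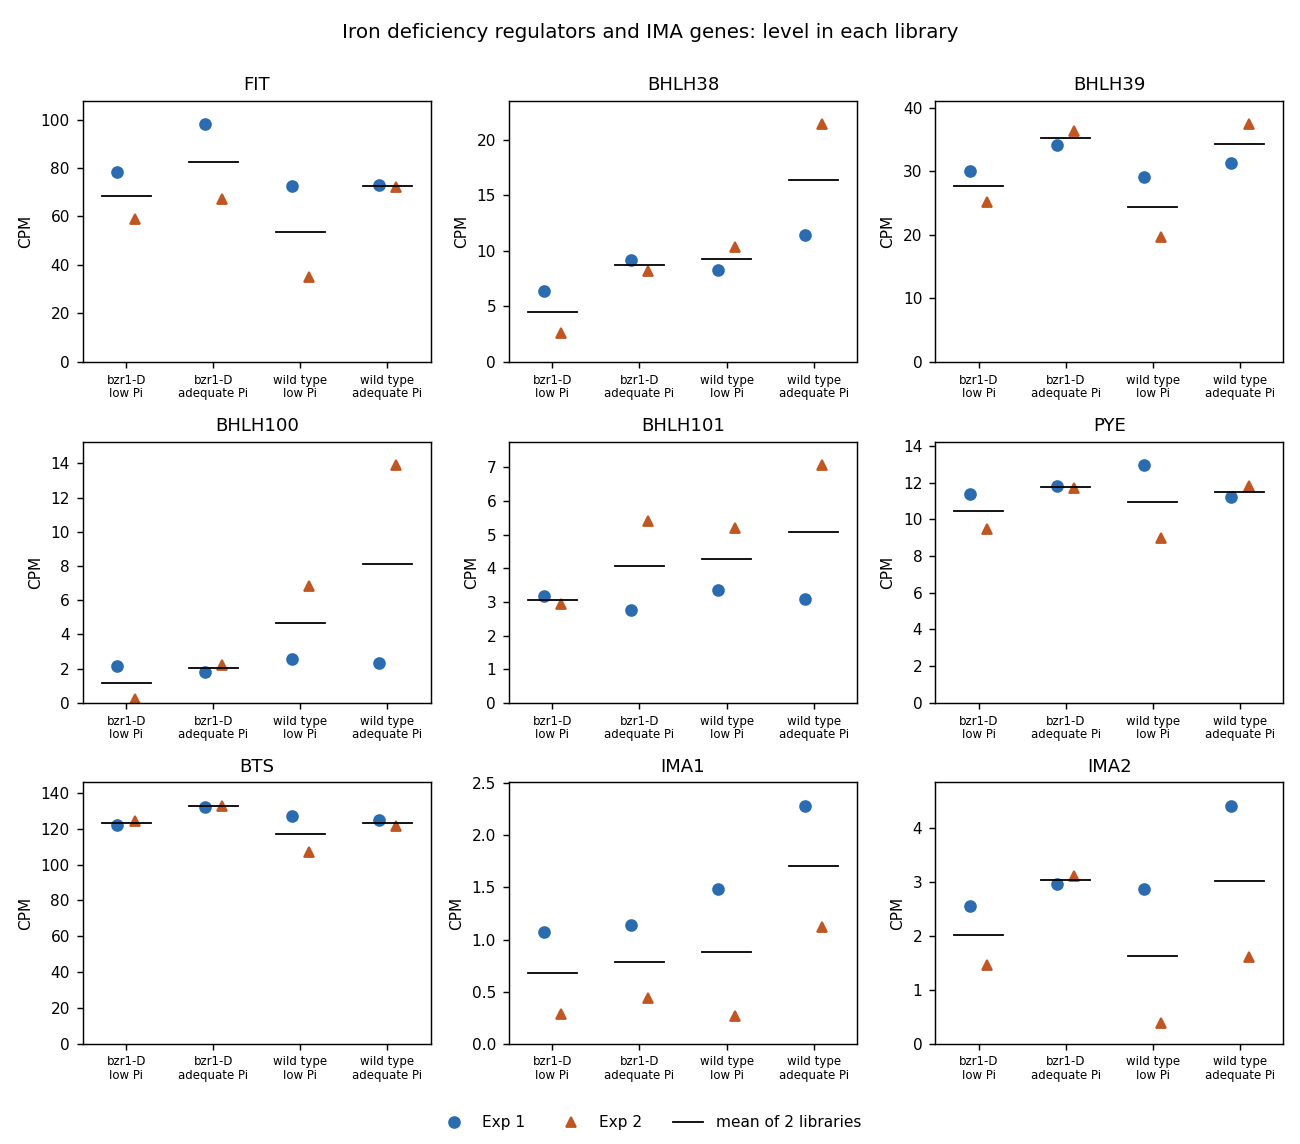
Level in CPM (vertical axis, from 0) of the 9 tested genes in the 4 groups (horizontal axis); circles are Exp 1, triangles Exp 2 and lines the mean of 2 libraries. BHLH39 lies lower in all 4 low Pi libraries (19.7 to 30.1 CPM) than in the 4 adequate Pi libraries (31.4 to 37.4 CPM), and BHLH100 runs from 0.226 CPM in bzr1-D at low Pi to 13.9 CPM in wild type at adequate Pi, both in Exp 2.

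FIT (AT2G28160, chromosome 2, 12004708 to 12006122, plus strand), the bHLH factor on which root iron uptake depends, had 78.2 and 58.8 CPM in bzr1-D at low Pi, against 98.0 and 67.2 CPM in bzr1-D at adequate Pi. It had 72.4 and 35.2 CPM in wild type at low Pi, against 73.2 and 72.0 CPM in wild type at adequate Pi. The bzr1-D groups overlapped, and in wild type the difference lay almost wholly in Exp 2. The fitted log2 fold change of low over adequate Pi was -0.27 ± 0.33 (SE) in bzr1-D and -0.43 ± 0.34 in wild type, with 95% intervals from -1.05 to 0.51 and from -1.22 to 0.35.

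Among the FIT partners, BHLH38 had 6.38 and 2.60 CPM in bzr1-D at low Pi, against 9.20 and 8.20 CPM in bzr1-D at adequate Pi. In wild type it had 8.31 and 10.3 CPM at low Pi, against 11.4 and 21.4 CPM at adequate Pi. In each genotype the low Pi libraries lay below the adequate Pi libraries with no overlap. The share of all features without overlap was not counted for this or any other comparison, so non-overlap is given as a description. The log2 fold change was -0.95 ± 0.44 in bzr1-D and -0.82 ± 0.41 in wild type. Leaving out 1 library moved the bzr1-D value between -1.74 (without low Pi Exp 1) and -0.45 (without low Pi Exp 2), and the wild type value between -1.21 (without adequate Pi Exp 1) and -0.28 (without adequate Pi Exp 2). Averaged over the genotypes it was -0.88 ± 0.30, with an unadjusted p of 0.0211 and an adjusted p of 1.00 by the quasi-likelihood test of edgeR, adjusted with Benjamini-Hochberg over all features.

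BHLH39 had 30.1 and 25.2 CPM in bzr1-D at low Pi, against 34.1 and 36.3 CPM in bzr1-D at adequate Pi. It had 29.1 and 19.7 CPM in wild type at low Pi, against 31.4 and 37.4 CPM in wild type at adequate Pi. Every low Pi library, of either genotype, lay below every adequate Pi library. The log2 fold change averaged over the genotypes was -0.42 ± 0.14, with a 95% interval from -0.75 to -0.09, an unadjusted p of 0.0198 and, by the same edgeR test, an adjusted p of 1.00. Its lower level at low Pi held in both Exp numbers, at -0.18 and -0.53 on the log2 scale in bzr1-D and at -0.11 and -0.92 in wild type.

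The remaining Ib genes were lower in abundance and less even. BHLH100 (AT2G41240, chromosome 2, 17198282 to 17199320, minus strand) had 2.14 and 0.226 CPM in bzr1-D at low Pi, against 1.82 and 2.24 CPM in bzr1-D at adequate Pi. It had 2.59 and 6.81 CPM in wild type at low Pi, against 2.33 and 13.9 CPM in wild type at adequate Pi. The Pi groups overlapped in both genotypes, and the libraries of Exp 1 differed little. Its log2 fold change in wild type, -0.79 ± 0.91, became 1.02 without wild type adequate Pi Exp 2, and in bzr1-D it was -0.74 ± 1.11 with all libraries and 0.088 without bzr1-D low Pi Exp 2.

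BHLH101 (AT5G04150, chromosome 5, 1138559 to 1139476, minus strand) had 3.17 and 2.94 CPM in bzr1-D at low Pi, against 2.76 and 5.41 CPM in bzr1-D at adequate Pi. It had 3.36 and 5.19 CPM in wild type at low Pi, against 3.09 and 7.06 CPM in wild type at adequate Pi. These groups overlapped, and the log2 fold change was -0.41 ± 0.48 in bzr1-D and -0.25 ± 0.46 in wild type.

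The arm that restrains the response was the steadiest. PYE (AT3G47640, chromosome 3, 17567126 to 17569385, plus strand) had 11.4 and 9.50 CPM in bzr1-D at low Pi, against 11.8 and 11.7 CPM in bzr1-D at adequate Pi, while wild type had 12.9 and 8.97 CPM at low Pi, against 11.2 and 11.8 CPM at adequate Pi. BTS (AT3G18290, chromosome 3, 6273995 to 6280510, plus strand), the ligase that removes IVc factors, had 122 and 124 CPM in bzr1-D at low Pi, against 132 and 133 CPM in bzr1-D at adequate Pi, while wild type had 127 and 107 CPM at low Pi, against 125 and 122 CPM at adequate Pi. PYE overlapped between the Pi supplies in wild type and not in bzr1-D, and BTS likewise. For BTS the log2 fold change was -0.10 ± 0.12 in bzr1-D and -0.07 ± 0.12 in wild type, with 95% intervals from -0.38 to 0.17 and from -0.35 to 0.20. For PYE it was -0.17 ± 0.20 in bzr1-D and -0.07 ± 0.20 in wild type.

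The peptide genes stood near the lower end of what the depth could measure. IMA1 had 1.07 and 0.283 CPM in bzr1-D at low Pi, against 1.14 and 0.435 CPM in bzr1-D at adequate Pi, while wild type had 1.49 and 0.270 CPM at low Pi, against 2.28 and 1.12 CPM at adequate Pi. In all 4 groups the Exp 2 library was the lower, with Exp 2 minus Exp 1 between -2.08 and -0.96 on the log2 scale. The Pi groups overlapped, whereas within each Exp number IMA1 was lower at low Pi, by log2 differences of -0.09 and -0.48 in bzr1-D and of -0.58 and -1.71 in wild type. With Exp as a term the log2 fold change in wild type was -1.06 ± 0.38, with an unadjusted p of 0.0168 and an adjusted p of 0.72 by edgeR, against an unadjusted p of 0.29 without it. IMA2 had 2.55 and 1.47 CPM in bzr1-D at low Pi, against 2.96 and 3.11 CPM in bzr1-D at adequate Pi, while wild type had 2.86 and 0.378 CPM at low Pi, against 4.41 and 1.62 CPM at adequate Pi. Its Pi groups did not overlap in bzr1-D and overlapped in wild type, where the low value of 0.378 CPM rested on 7 counts. The log2 fold changes at low Pi were -0.22 ± 0.92 for IMA1 and -0.58 ± 0.77 for IMA2 in bzr1-D, and -0.94 ± 0.83 for IMA1 and -0.89 ± 0.79 for IMA2 in wild type. Single libraries moved the wild type values: with low Pi Exp 1 left out they were -2.61 for IMA1 and -2.95 for IMA2, whereas IMA1 had -0.19 without wild type low Pi Exp 2 and IMA2 -0.011 without wild type adequate Pi Exp 1.

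IMA3 had 1 count in all, in bzr1-D at low Pi in Exp 1, and 0 counts in the other 7 libraries. A count of 0 allows up to 3 counts, or 0.135 to 0.186 CPM per library, which covers counting error only. Its counted span covers 47.9% of the RefSeq exon length and overlaps that of AT2G30760, on the opposite strand, over 313 bases. AT2G30760 itself held 25 counts in all 8 libraries. No source used here says whether reads were assigned by strand, so reads in that overlap cannot be placed. Whether the count of IMA3 reflects its RNA level or how the feature was counted was not tested.

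Across these genes, the response to low Pi therefore had a shared sign and no call. All 9 tested genes had a negative fitted log2 fold change in bzr1-D (median -0.35) and in wild type (median -0.49), whereas 48.7% and 50.9% of all features tested had a negative sign, with medians of 0.00. Leaving out 1 library turned the sign of 4 of the 9 in bzr1-D (FIT, BHLH100, BHLH101 and IMA1) and of 4 of the 9 in wild type (BHLH100, BHLH101, PYE and BTS). None of the 9 passed an adjusted p under 0.05 by edgeR in bzr1-D, in wild type or averaged over the genotypes, where 0% of all features passed in each. At an unadjusted p under 0.05, 253 features passed in bzr1-D, 331 in wild type and 442 on the average. Of the 9 members, 0 passed that mark in bzr1-D, 1 in wild type (BHLH39) and 2 on the average (BHLH38 and BHLH39). With Exp as a term in the model, 0.0197% of features (4) were called in bzr1-D, 0.0839% (17) in wild type and 0.148% (30) on the average, and none was a member. In that model 850 features had an unadjusted p under 0.05 by edgeR in bzr1-D, 1095 in wild type and 1293 on the average. The members among them were 0 in bzr1-D, 2 in wild type (BHLH39 and IMA1) and 1 on the average (BHLH39). In bulk roots, fewer cells of a type and less RNA per cell cannot be told apart.

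The shared sign was carried mainly by Exp 2. In Exp 2, all 9 genes were lower at low Pi, with a median of -0.53 on the log2 scale in bzr1-D and -1.02 in wild type. In Exp 1, 7 of 9 were lower in bzr1-D (median -0.11) and 5 of 9 in wild type (median -0.02). Each of these differences sets 1 library against 1. The share of all features lower at low Pi within an Exp number was not counted, so a shift of a whole library cannot be judged. The Pi starvation genes in wild type summed higher at low Pi in Exp 2 (265 CPM) than in Exp 1 (138 CPM). In bzr1-D at low Pi they summed lower in Exp 2 (375 CPM) than in Exp 1 (498 CPM). The part of these genes in the members' values was not tested. A sum over 4 touch and wounding genes was higher at low Pi in both Exp numbers, at 160 and 458 CPM in wild type at low Pi, against 50.2 and 130 CPM in wild type at adequate Pi. In bzr1-D that sum was 121 and 124 CPM at low Pi, against 64.1 and 96.0 CPM at adequate Pi.

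**Figure D2:**
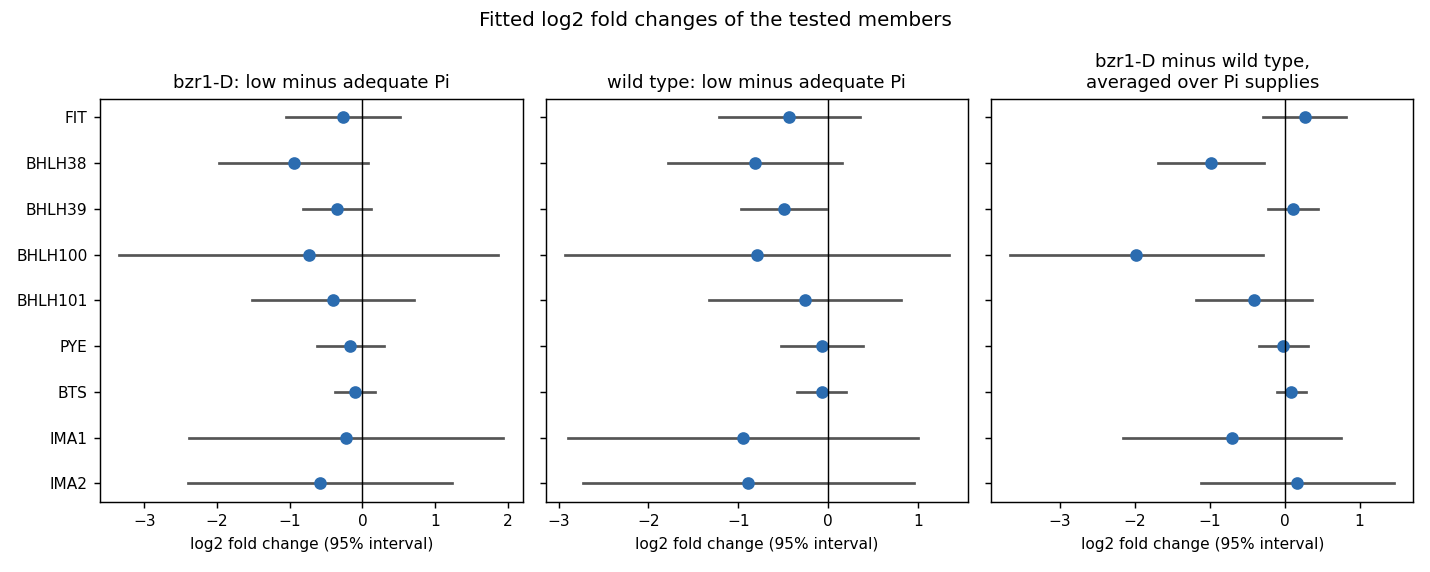
Fitted log2 fold change (horizontal axis, points) with its 95% interval (lines) for the 9 tested genes (vertical axis) in 3 comparisons. All 9 points lie below 0 in both Pi responses, with intervals that cross 0 for 9 genes in bzr1-D and for all but BHLH39 in wild type, and in the right panel BHLH38 (-0.98) and BHLH100 (-1.98) lie lowest.

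Between the genotypes, BHLH38 and BHLH100 stood out from the other members in the fit without Exp as a term. BHLH38 was lower in bzr1-D than in wild type at each Pi supply with no overlap, at 6.38 and 2.60 CPM in bzr1-D, against 8.31 and 10.3 CPM in wild type, at low Pi, and at 9.20 and 8.20 CPM in bzr1-D, against 11.4 and 21.4 CPM in wild type, at adequate Pi. The log2 fold change of bzr1-D over wild type was -1.04 ± 0.44 at low Pi, -0.91 ± 0.42 at adequate Pi and -0.98 ± 0.30 averaged over both, with a 95% interval of the average from -1.69 to -0.27. By edgeR's quasi-likelihood test the average had an unadjusted p of 0.0133 and an adjusted p of 0.14, which is no call. DESeq2 gave the same difference an adjusted p of 0.0234, which is a call, so that BHLH38 lay near the threshold and the tools disagreed. Without bzr1-D low Pi Exp 1 the edgeR value was -1.38 with an adjusted p of 0.0421, and without wild type adequate Pi Exp 2 it was -0.72 with an adjusted p of 0.37. With Exp as a term it was -0.96 ± 0.39, with an unadjusted p of 0.0697 and an adjusted p of 0.24 by edgeR.

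BHLH100 differed more in size and less in certainty. Its log2 fold change of bzr1-D over wild type was -1.95 ± 1.05 at low Pi, -2.01 ± 0.98 at adequate Pi and -1.98 ± 0.72 averaged, with an adjusted p of 0.22 for the average by edgeR. In Exp 1 the difference was -0.26 at low Pi and -0.34 at adequate Pi, and in Exp 2 it was -4.38 and -2.58, the first of these against a bzr1-D library of 4 counts. Without wild type adequate Pi Exp 2 the average was -1.08, and without bzr1-D low Pi Exp 1 it was -3.18. With Exp as a term the average was -1.77 ± 0.92, with an adjusted p of 0.36 by edgeR. BHLH101 was also lower in bzr1-D in each of the 4 pairs of the same Pi supply and Exp number, with differences between -0.80 and -0.08 on the log2 scale, and its averaged log2 fold change was -0.41 ± 0.33.

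BHLH38, BHLH100 and BHLH101 were each lower in bzr1-D in all 4 such pairs, without a call by edgeR. The share of all features lower in all 4 pairs was not counted, so this is a description of these genes only. BHLH39, the neighbour of BHLH38 on chromosome 3, had an averaged log2 fold change of bzr1-D over wild type of 0.11 ± 0.14. Its 95% interval ran from -0.23 to 0.44, against -1.69 to -0.27 around the -0.98 of BHLH38. The difference between the genes was not tested. The coding sequences of BHLH38 and BHLH39 were identical at 83.1% of aligned bases and shared no stretch of 50 bases, so reads were not ambiguous between them by sequence alone. Their promoters shown above differ in that the BHLH38 window holds a G-box and the BHLH39 window does not. The windows of BHLH100 and BTS hold it too, and that of BHLH101 does not. BTS had an averaged log2 fold change of bzr1-D over wild type of 0.09 ± 0.08. Any part of the G-box in the genotype differences was not tested.

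For the other members the genotype difference averaged over both Pi supplies was 0.27 ± 0.24 for FIT, -0.02 ± 0.14 for PYE, 0.09 ± 0.08 for BTS, -0.71 ± 0.62 for IMA1 and 0.17 ± 0.55 for IMA2 on the log2 scale. The intervals of PYE, from -0.34 to 0.30, and of BTS, from -0.11 to 0.28, were the narrowest. IMA1 was lower in bzr1-D in 3 of 4 pairs of the same Pi supply and Exp number. With Exp as a term its averaged log2 fold change was -0.75 ± 0.29, with an unadjusted p of 0.0267 and an adjusted p of 0.12 by edgeR. That unadjusted p was the lowest among the tested members in that fit, below that of BHLH38.

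None of the 9 genes was called by edgeR between the genotypes, where 2.12% of all features were called at low Pi, 1.99% at adequate Pi and 5.37% on the average. With Exp as a term, 9.00% of features were called at low Pi, 7.40% at adequate Pi and 15.3% on the average, and again none of the 9. On the average 4 members had a positive and 5 a negative sign, with a median of -0.02, against 0.01 for all features. Shoot genes summed to 58.6 and 62.2 CPM in bzr1-D at low Pi, against 37.1 and 60.1 CPM in wild type at low Pi, and to 62.8 and 64.5 CPM in bzr1-D at adequate Pi, against 42.9 and 36.6 CPM in wild type at adequate Pi. The root hair pair COBL9 and EXPA7 summed to 81.8 and 49.4 CPM in bzr1-D at low Pi, against 75.1 and 71.8 CPM in wild type at low Pi, and to 51.6 and 27.1 CPM in bzr1-D at adequate Pi, against 69.9 and 56.5 CPM in wild type at adequate Pi. Their part in the genotype differences was not tested.

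The difference of the Pi responses, bzr1-D minus wild type, ranged from -0.15 ± 0.66 for BHLH101 to 0.72 ± 1.25 for IMA1 on the log2 scale. The adjusted p was 1.00 for all 9 by edgeR, with 0% of all features called and 159 features at an unadjusted p under 0.05. The intervals were wide for the weakly expressed genes, from -3.47 to 3.58 for BHLH100, and narrowest for BTS, from -0.42 to 0.36. The data therefore do not bound a difference between the genotypes in the Pi response of BHLH100 or the IMA genes.

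The members' courses over the 8 libraries fell into separate sets, given here as a description since all points share the same libraries and depths. BHLH38 and BHLH100 ran together (Pearson r of log2 CPM 0.93, n = 8 libraries), and BHLH101 followed BHLH100 less closely (r = 0.74). FIT ran instead with BHLH39 (r = 0.82), BTS (r = 0.85), PYE (r = 0.80) and IMA2 (r = 0.86), and hardly with BHLH38 (r = 0.09). BHLH38 and its neighbour BHLH39 had r = 0.39. IMA1 and IMA2 had r = 0.71.

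The 11 FIT-dependent genes took unlike courses, with r against BHLH100 from -0.31 (NRAMP1 and AHA2) to 0.98 (CYP82C4). IRT1, the main root iron transporter, had r = 0.87 with BHLH38 and 0.86 with BHLH100, against 0.23 with FIT. FRO2, the root surface ferric reductase, had r = 0.86 with BHLH38 and 0.91 with BHLH100, against 0.07 with FIT. CYP82C4, a cytochrome P450 of iron-mobilising coumarin synthesis, had r = 0.95 with BHLH38 and 0.98 with BHLH100, against -0.02 with FIT. MTP3, a vacuolar zinc transporter, had r = 0.92 with BHLH38 and 0.88 with BHLH100, against 0.29 with FIT. AHA2, the proton pump that acidifies the soil around roots, had r = 0.83 with FIT and -0.14 with BHLH38. NRAMP1, a manganese and iron transporter, ran with neither, at r = -0.31 with BHLH38 and -0.18 with FIT.

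A pair of libraries held the extremes of these courses. IRT1 had 102 and 21.1 CPM in bzr1-D at low Pi, against 106 and 126 CPM in bzr1-D at adequate Pi, while wild type had 73.0 and 86.9 CPM at low Pi, against 68.4 and 219 CPM at adequate Pi. BHLH38, BHLH100, IRT1, FRO2 and CYP82C4 each had their lowest level in bzr1-D at low Pi in Exp 2 and, in the same Exp number, their highest in wild type at adequate Pi. FRO2 had 24.4 CPM in the first of these libraries and 257 CPM in the second, and CYP82C4 had 6.67 and 206 CPM. In Exp 1 the 4 libraries of these targets lay closer, FRO2 between 62.5 and 104 CPM.

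**Figure D3:**
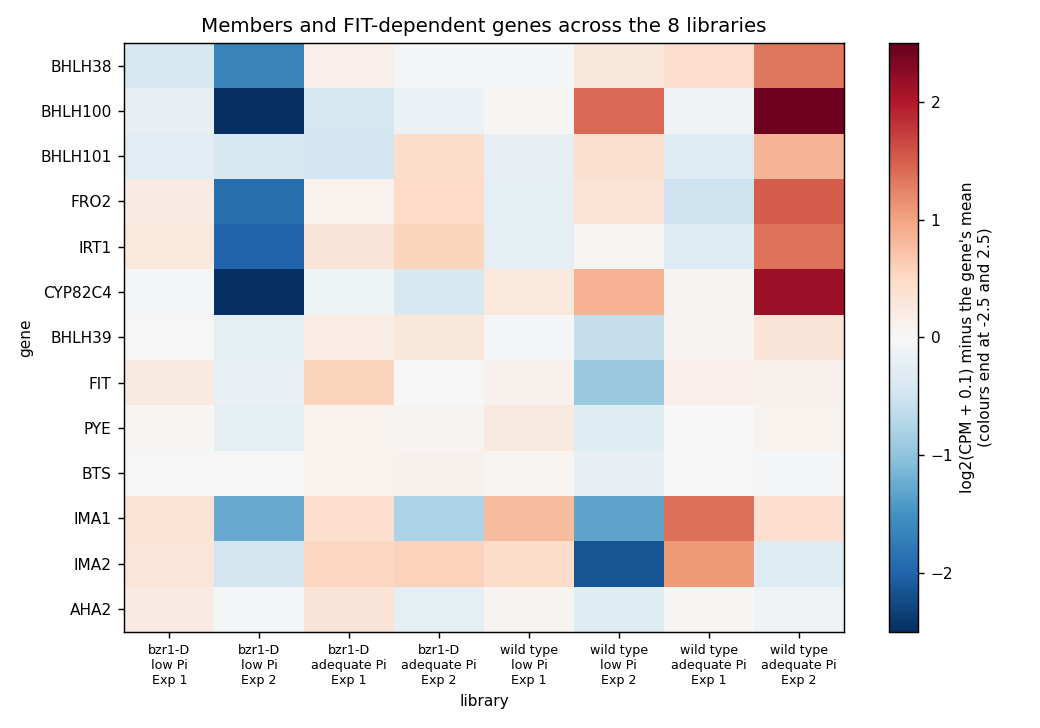
Level of 9 members and 4 FIT-dependent genes (rows) in the 8 libraries (columns), as log2(CPM + 0.1) minus the mean of the gene, with colours ending at -2.5 and 2.5. BHLH38, BHLH100, FRO2, IRT1 and CYP82C4 share their lowest value in bzr1-D at low Pi, Exp 2, and their highest in wild type at adequate Pi, Exp 2, while FIT is lowest in wild type at low Pi, Exp 2.

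Among 18811 features with a mean of at least 1 CPM, the courses most like those of 3 members were also sought, by Pearson r over the 8 libraries and with no p. Most like BHLH39 were AT3G22104 (r = 0.95), HAC4 (0.94), NDP1 (0.93), AT1G55390 (0.93) and AT1G73450 (0.92). Most like FIT were AT5G43180 (0.98), AT4G38690 (0.97), AT1G62950 (0.96), SCAR4 (0.95) and AT3G19370 (0.95). Most like IMA1 were AT5G46900 (0.98), AT5G20885 (0.98), PUM2 (0.98), TPS1 (0.97) and AT5G35430 (0.97). With 8 points and this many features, high values of r are common. None of these genes was on a list of iron genes used here.

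By edgeR without Exp as a term, the calls in the iron pathway were among the regulators upstream of the members or beside them. Of 14 upstream and partner regulators, 13 were tested, and 2 were called lower in bzr1-D than in wild type on the average, with 0 higher, where 5.37% of all features were called (671 lower and 418 higher). BHLH121, which works with the IVc factors to switch on the Ib genes, had 16.6 and 25.3 CPM in bzr1-D at low Pi, against 38.6 and 46.3 CPM in wild type at low Pi, and 17.8 and 24.9 CPM in bzr1-D at adequate Pi, against 38.2 and 48.4 CPM in wild type at adequate Pi. Every bzr1-D library lay below every wild type library, and the share of all features separated in that way was not counted. The log2 fold change of bzr1-D over wild type was -1.02 ± 0.18, with an adjusted p of 0.0175 by edgeR, so BHLH121 fell in bzr1-D. The fitted log2 fold change was -1.02 ± 0.25 at each Pi supply. It was called at each single Pi supply with Exp as a term (adjusted p 4.9e-05 at low Pi and 5.4e-05 at adequate Pi) and not without it (0.12 at each). The fit with that term called 9.00% of all features at low Pi and 7.40% at adequate Pi. The averaged call was lost without bzr1-D adequate Pi Exp 1 (adjusted p 0.0701), wild type low Pi Exp 2 (0.0712) or wild type adequate Pi Exp 2 (0.0564).

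MYB10, a MYB factor required together with MYB72 for growth on iron-poor soil and known to act on nicotianamine synthesis, had 1.63 and 0.452 CPM in bzr1-D at low Pi, against 4.13 and 5.40 CPM in wild type at low Pi, and 2.13 and 1.68 CPM in bzr1-D at adequate Pi, against 4.001 and 8.09 CPM in wild type at adequate Pi. The groups did not overlap, and the averaged log2 fold change was -1.91 ± 0.38 with an adjusted p of 0.0306 by edgeR. This call was lost without either bzr1-D library at adequate Pi, either wild type library at low Pi or wild type adequate Pi Exp 2, with adjusted p-values from 0.0664 to 0.122. With Exp as a term, the IVc factor BHLH34 was called as well, at -0.54 and an adjusted p of 0.0085 by edgeR, against 0.35 without it. The fit with that term called 15.3% of all features on the averaged genotype difference. In the Pi responses none of the 13 was called. The log2 fold changes of lowest unadjusted p were those of BHLH11, a repressor of iron uptake genes (-0.51 ± 0.21 in bzr1-D), MYB10 (-0.85 ± 0.59 in bzr1-D and -0.35 ± 0.48 in wild type) and CIPK11, a kinase that acts on FIT (-0.30 ± 0.19 in wild type). In the difference of the Pi responses they were those of CIPK11 (0.43 ± 0.27) and BHLH11 (-0.47 ± 0.30).

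The 11 FIT-dependent uptake and mobilisation genes had 0 calls in each comparison, with and without Exp as a term. The share of all features called was highest on the averaged genotype difference, at 5.37% without Exp as a term and 15.3% with it. In the Pi response averaged over the genotypes 9 of 11 had a negative sign, with a median of -0.09 on the log2 scale, against 50.6% of all features. IRT1 had -0.88 ± 0.51, FRO2 -0.76 ± 0.54 and AHA2 -0.03 ± 0.17, and MTP3 had -0.36 ± 0.20. In wild type IREG2, a vacuolar metal transporter, had -0.43 ± 0.31. Between the genotypes the averaged log2 fold change was -0.34 ± 0.51 for IRT1, -0.55 ± 0.54 for FRO2, 0.15 ± 0.17 for AHA2, -1.56 ± 0.62 for CYP82C4 (adjusted p 0.28 by edgeR) and -0.66 ± 0.37 for IRT2, a transporter related to IRT1. At low Pi alone, IREG2 had 0.38 ± 0.31. In the difference of the Pi responses the lowest unadjusted p belonged to BGLU42, a beta-glucosidase, with 0.11 ± 0.23, and to IREG2, with 0.20 ± 0.43. AHA2 was the most abundant of them, at 2693 to 4178 CPM.

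Of 7 genes known as targets of PYE or the IVc factors outside uptake, 0 were called by the fit without Exp as a term. In that fit the share of all features called was highest on the averaged genotype difference, at 5.37%. FRO3, a mitochondrial ferric reductase gene that PYE represses, had 33.2 and 19.1 CPM in bzr1-D at low Pi, against 45.1 and 52.7 CPM in wild type at low Pi, and 32.0 and 33.7 CPM in bzr1-D at adequate Pi, against 46.4 and 66.4 CPM in wild type at adequate Pi. Its averaged log2 fold change was -0.84 ± 0.19, just short of a call by edgeR (adjusted p 0.0529) and called by DESeq2 (0.0013) and limma-voom (0.0497). With Exp as a term FRO3 was not called by edgeR. With Exp as a term, the vacuolar nicotianamine transporter gene ZIF1 was called lower in bzr1-D (-0.56, adjusted p 1.0e-04) and the nicotianamine synthase gene NAS4 higher (1.06, adjusted p 5.7e-04) by edgeR, against adjusted p-values of 0.21 and 0.50 without it. The fit with that term called 15.3% of all features on the averaged genotype difference. FRO3, ZIF1 and NAS4 thus differed in sign between the genotypes, and the RNA of PYE had a log2 fold change of -0.02. Any part of PYE in these differences was not tested. In the Pi responses NAS1, a nicotianamine synthase gene, had the lowest unadjusted p on the average (-0.38 ± 0.24), and its paralog NAS2 had the lowest in bzr1-D (-1.18 ± 0.89). In wild type NAS1 had -0.35 ± 0.34 and NRAMP4, a vacuolar iron exporter gene, -0.15 ± 0.14. In the difference of the Pi responses NAS2 had -0.88 ± 1.18 and ZIF1 -0.29 ± 0.39.

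**Figure D4:**
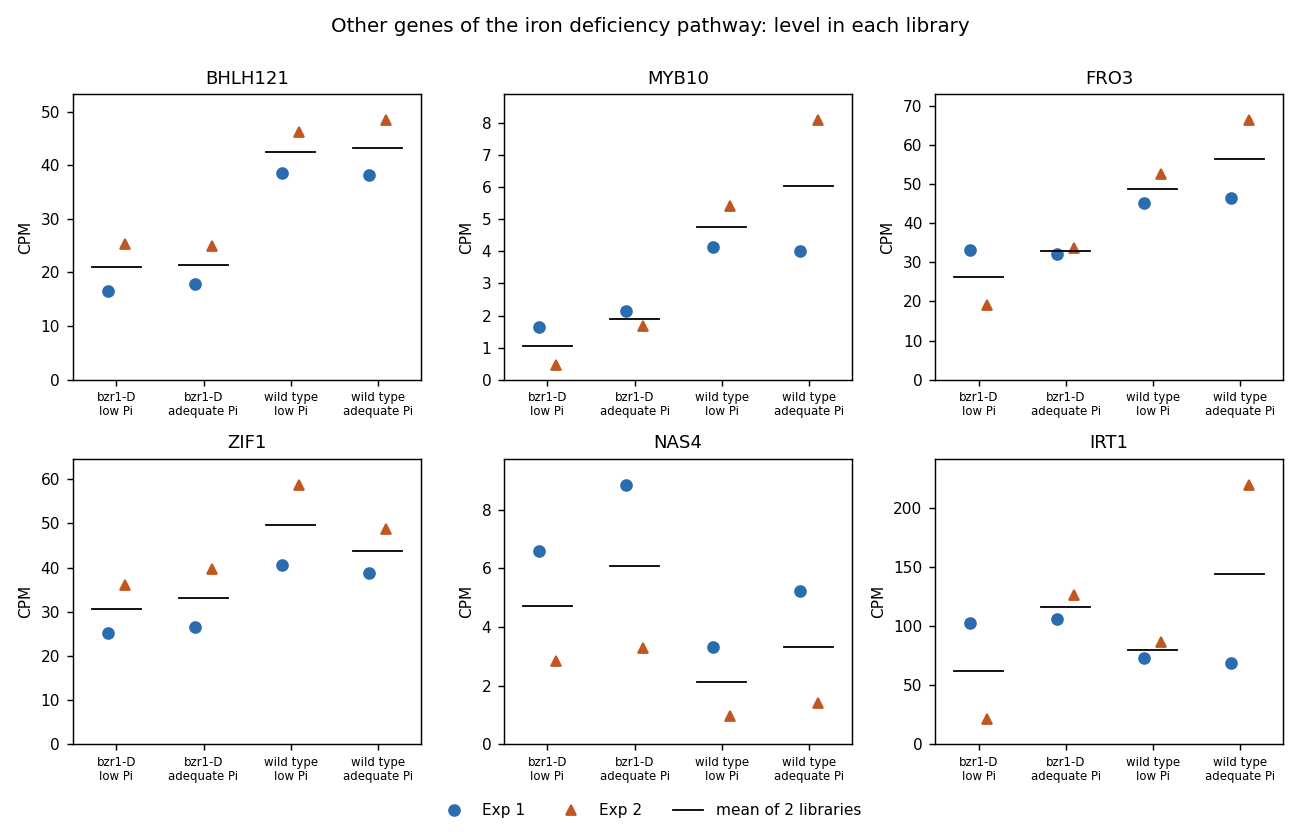
Level in CPM (vertical axis, from 0) of 6 genes of the pathway that are not among the members, in the 4 groups (horizontal axis); circles are Exp 1, triangles Exp 2 and lines the mean of 2 libraries. BHLH121, MYB10 and FRO3 lie lower in every bzr1-D library than in every wild type library, whereas IRT1 spans 21.1 to 219 CPM within Exp 2.

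Most of the iron storage and excess genes tested took the opposite sign to the members in the Pi responses, again with no call. Of 7 such genes, 5 were tested, and all 5 had a positive log2 fold change in bzr1-D at low Pi (median 0.28) and 4 of 5 in wild type (median 0.09). Among all features tested, 48.7% had a negative sign in bzr1-D and 50.9% in wild type. The lowest unadjusted p of these genes in wild type was 0.57 by edgeR. The vacuolar iron transporter-like gene VTL2 had 0.40 ± 0.23 in bzr1-D and the ferritin gene FER4 0.28 ± 0.20, and in wild type the ferritin gene FER3 had 0.16 ± 0.26 and VTL1 0.30 ± 0.60. Between the genotypes VTL1 had the lowest unadjusted p on the average, at 1.03 ± 0.42 with an adjusted p of 0.29 by edgeR, followed by VTL2 at 0.26 ± 0.16. In the difference of the Pi responses VTL2 had 0.38 ± 0.33 and FER4 0.19 ± 0.29. FER1, the main ferritin gene, held 0 counts in all 8 libraries and VIT1 at most 3 counts in any, so neither was tested. Whether the count of FER1 reflects its RNA level or how the feature was counted was not tested.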

How the data were processed

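The authors deposited whole-number counts of 50-base single reads per annotated feature, not normalized. TopHat2 2.0.11, HTSeq 0.6.1, DESeq2 1.2.8 and TAIR10 are named, per the submitters' processing notes, and no source used here gives strand or multiple-mapping settings. Groups came from the sample titles, since the labels swap the tags of strain and tissue.

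Counts were tested with edgeR 4.0.16 (R 4.3.3): quasi-likelihood robust fit over all 8 libraries, 1 coefficient per group, TMM, default filter with minimum count 10, and Benjamini-Hochberg adjustment over all 20262 features, with a call at an adjusted p under 0.05. Residual degrees of freedom were 4. The SE is the log2 fold change over the square root of F. The pipeline was tested on simulated data. Alternatives were DESeq2 1.42.0 and its size factors, limma-voom (limma 3.58.1), no filter, each library left out, and the Exp number as a replicate block.

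Same-numbered libraries deviated together in all 6 pairs of groups (r from 0.29 to 0.64). In the tests, the labels' Exp numbers were taken as pairing only in the alternative fit with the replicate block. The main fit, and every test not marked as having Exp as a term, left this pairing out. The biological coefficient of variation, 0.169, became 0.0858 with the block. Replicates differed beyond sampling noise (chi-square per degree of freedom 14.5 to 30.6).

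The members, gene lists and naming rule were chosen with earlier results of these data known. All members are named, then IRT1, FRO2, AHA2, called list genes, the 2 of each list with the smallest p in a comparison (Pi starvation genes as sums only), and the 5 likeliest courses for BHLH39, FIT and IMA1. 8 list genes whose symbol the reference does not carry at that locus were left out. Coordinates of genes are the deposited ones (TAIR10). Of 32834 loci shared with TAIR10.1, 99.98% overlap there, so windows were read from TAIR10.1.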

Additional observations from a re-analysis of the deposited data

How the results depend on the processing

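Of 715 values for single genes (55 results under 13 alternatives each), 671 kept direction and side of the threshold, 27 turned direction, each on leaving out 1 library, 9 passed the threshold and 8 calls were lost (BHLH121 and MYB10, each on leaving out 1 library). Features called moved to 20 (Pi response in bzr1-D), 28 (in wild type), 57 (averaged), 669 (genotypes at low Pi) and 631 (at adequate Pi) under DESeq2, and to 4, 17, 30, 1823 and 1500, and 3090 for the averaged genotype difference, under the replicate block. Without the filter 1 was called in the averaged Pi response. The members called moved to 1 (BHLH38, averaged genotype difference) under DESeq2. The block changed no member's call.

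Leaving out 1 library at a time, features called lay between 0 and 10 (Pi response in wild type), 0 and 19 (averaged), 182 and 362 (genotypes at low Pi), 173 and 385 (at adequate Pi) and 609 and 900 (averaged), and members called in the last between 0 and 1. Log2 fold changes that turned were, in the Pi response of bzr1-D, FIT (-0.51 to 0.029), BHLH100 (-3.12 to 0.088), BHLH101 (-0.82 to 0.15) and IMA1 (-1.48 to 0.65). In wild type they were BHLH100 (-1.66 to 1.02), BHLH101 (-0.73 to 0.47), PYE (-0.35 to 0.16) and BTS (-0.20 to 0.043), and averaged BHLH100 (-1.96 to 0.14), BHLH101 (-0.57 to 0.032) and AHA2 (-0.16 to 0.11). In the averaged genotype difference they were BHLH39 (-0.022 to 0.25), PYE (-0.14 to 0.11), IMA1 (-1.34 to 0.12), IMA2 (-0.24 to 1.198), IRT1 (-1.12 to 0.19) and FRO2 (-1.25 to 0.12), and for the difference of the Pi responses IMA1 (-0.54 to 2.38). The cause was not tested. Counts were lowest for BHLH100, IMA1 and IMA2, at 4, 5 and 7 in their lowest libraries, and IMA3 had too few to be tested.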
